A study of Mus musculus with 10 samples.

Results

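The 10 ETS factors of the mammary epithelium were followed in sorted mouse mammary cells: Elf1, Elf3, Elf5, Ehf, Spdef, Ets1, Ets2, Etv4, Etv5 and Etv6. They were taken by name, and all 10 were found among the 24594 genes of the count table and passed the filter that left 14609 genes tested. The libraries came from wild type C57BL/6J mice that carried no transgene and received no agent by the labels, which give neither age nor sex. The cells were freed from the gland with collagenase, hyaluronidase, trypsin and dispase, and flow sorting on EpCAM and CD49f parted the luminal cells that line the duct from the contractile basal cells around them. There were 5 libraries of each cell type, with 13203146 to 17565471 counts in luminal and 13676558 to 17998165 counts in basal libraries. The comparison asks in which of the 2 layers of the duct each factor was transcribed. The groups followed the cell type label, because in all 10 libraries the title gives the other cell type than the label. The sorted luminal gate holds both progenitors and hormone-sensing cells, so a bulk value is an average over them.

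The cell type label was checked against markers. CPM is the usual depth-scaled read count, here on library totals adjusted by the TMM method. The summed CPM of 6 luminal markers (Krt8, Krt18, Krt19, Epcam, Cldn3 and Cldn4) ranged from 12880 to 17900 in luminal and from 1772 to 2470 in basal libraries. That of 6 basal markers (Krt5, Krt14, Trp63, Acta2, Myh11 and Oxtr) ranged from 25.6 to 77.5 in luminal and from 9948 to 14140 in basal libraries. Markers of cells from outside the epithelium were low but not equal between the gates: the summed CPM of 6 endothelial markers was 2.69 to 7.10 in luminal and 7.57 to 15.2 in basal libraries, and that of 6 leukocyte markers 18.9 to 25.5 and 36.3 to 53.6. The T cell marker Cd3e was at 0 in every library. Summed fibroblast markers ranged from 23.7 to 110.7 in luminal and from 25.6 to 41.1 in basal libraries, and those of red cells from 4.74 to 17.4 and from 0.546 to 2.28.

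ETS factors share a DNA-binding domain that recognises a GGAA core, and much of what sets them apart lies in the rest of the protein and in where each is made. The ESE subgroup (Elf3, Elf5 and Ehf) is largely restricted to epithelia. Elf5 is known as the factor that specifies the secretory alveolar lineage downstream of the prolactin receptor, and it is made by luminal progenitors. Etv4 and Etv5, of the PEA3 subgroup, are switched on by receptor tyrosine kinase and ERK signalling and take part in branching of several organs. Ets1 and Ets2 are activated by ERK phosphorylation, and Etv6 is a repressor.

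ETS factors are known to bind genes of other ETS factors, so the core was looked up in the promoter windows of the members most different between the cell types. RefSeq windows on GRCm38.p6 were matched by symbol for 7 of the 10 members, in 10 windows; Ehf, Ets1 and Etv4 had none. The sequences are those 250 bases before the annotated start, on the gene's strand, with every GGAA or its reverse complement TTCC in capitals. Elf5 has 2 annotated starts. The window of the upstream start is at chr2:103411848-103412097 (+). The other, at chr2:103423818-103424067 (+), lies inside the gene. The Elf3 window is at chr1:135258473-135258722 (-), and that of Spdef, which also lies inside the annotated gene, at chr17:27728952-27729201 (-).
Elf5 upstream start: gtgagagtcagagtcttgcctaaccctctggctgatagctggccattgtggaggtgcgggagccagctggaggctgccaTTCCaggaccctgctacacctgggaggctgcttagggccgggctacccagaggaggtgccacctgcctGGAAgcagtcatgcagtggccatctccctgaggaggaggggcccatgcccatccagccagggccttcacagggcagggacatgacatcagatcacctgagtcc
Elf5 internal start: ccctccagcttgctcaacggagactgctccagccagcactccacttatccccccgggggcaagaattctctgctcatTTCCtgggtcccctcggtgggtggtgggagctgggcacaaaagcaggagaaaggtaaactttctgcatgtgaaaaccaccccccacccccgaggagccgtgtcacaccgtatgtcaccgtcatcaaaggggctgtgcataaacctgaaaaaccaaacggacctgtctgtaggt
Elf3: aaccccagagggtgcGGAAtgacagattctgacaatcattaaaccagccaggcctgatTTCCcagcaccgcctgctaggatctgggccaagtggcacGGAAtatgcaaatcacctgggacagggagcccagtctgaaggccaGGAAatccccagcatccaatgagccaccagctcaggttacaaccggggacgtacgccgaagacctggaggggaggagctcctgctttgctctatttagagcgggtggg
Spdef: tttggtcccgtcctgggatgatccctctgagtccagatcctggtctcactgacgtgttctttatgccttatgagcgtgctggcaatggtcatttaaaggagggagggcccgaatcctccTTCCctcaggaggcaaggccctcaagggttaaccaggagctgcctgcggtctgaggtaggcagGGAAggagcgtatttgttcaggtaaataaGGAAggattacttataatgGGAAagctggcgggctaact

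The Elf3 window held 4 copies of the core, the Spdef window 4, and the Elf5 windows 2 and 1. Across the 10 member windows, 8 held at least 1 copy, where 93.4% of all 32851 RefSeq windows cut to the same 250 bases did so, with a median of 3 copies. The 2 windows without it were the second window of Elf1 and the upstream window of Etv5. The longer CCGGAA was in no member window and in 12.0% of all windows. CAGGAA, or TTCCTG on the other strand, occurred once each in Elf3, the internal Elf5 window, Etv6 and the second Etv5 window, and in 25.7% of all windows. Both contain the core and were counted on both strands. A match is a stretch of letters and not a bound site.

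Of the 10 members, 6 were higher in luminal cells (Elf5, Ehf, Spdef, Elf3, Etv6 and Elf1), 2 were higher in basal cells (Etv5 and Ets2), and Ets1 and Etv4 did not pass the test. Fold changes are log2 values of luminal against basal from edgeR's quasi-likelihood test, with Benjamini-Hochberg adjusted p under 0.05 as the call. Of all genes tested, 33.6% were called higher in luminal cells and 31.2% in the basal direction, 64.8% in all, with a median log2 fold change of 0.05, so a call by itself was common. The median over the members was 0.64. The groups did not overlap for 7 of the members, where 50.1% of all genes tested had groups that did not overlap. The sizes of the changes spanned a wide range, from 9.02 for Elf5 to -2.56 for Etv5. In bulk libraries, fewer cells of a type that express a gene and less RNA per cell cannot be told apart.

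**Figure D1:**
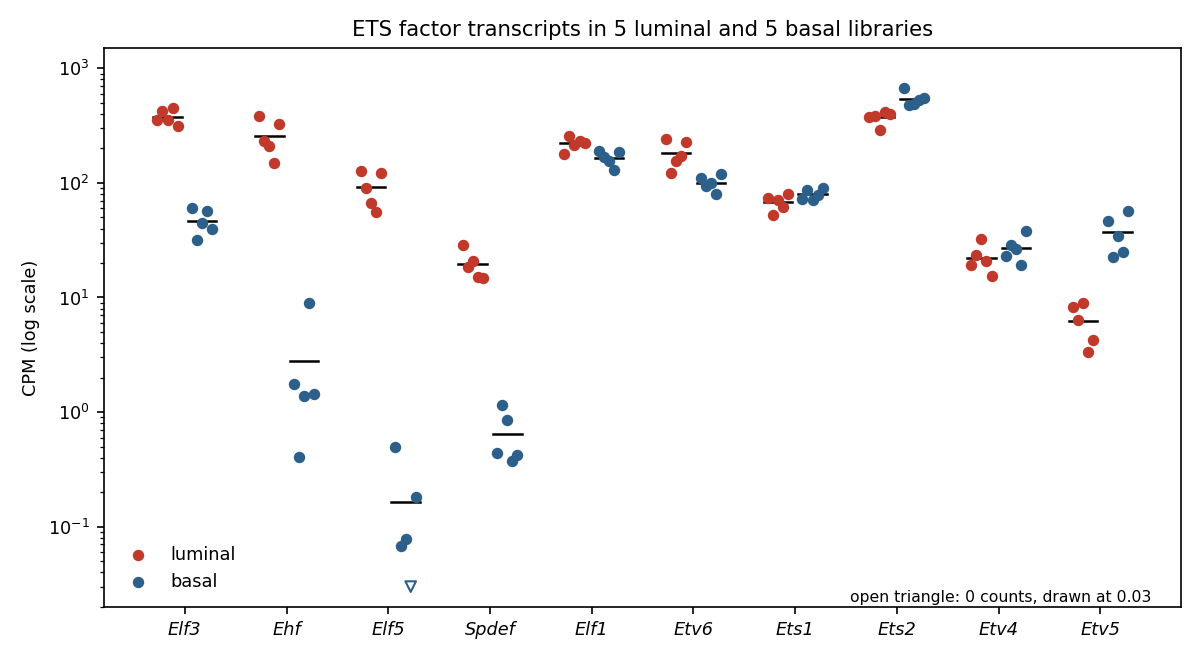
CPM (log scale) of the 10 ETS factors in each library, luminal in red and basal in blue, with the group mean as a bar; an open triangle marks a count of 0. Elf5, Ehf, Spdef and Elf3 lie higher in every luminal than in any basal library, Etv5 and Ets2 lower, while Elf1, Ets1 and Etv4 overlap.

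Elf5 (Entrez 13711, chr2:103412098-103450989, + strand, GRCm38) gave the largest difference of the members. Its CPM was 127, 89.6, 66.7, 55.7 and 122 in luminal replicates 1 to 5 and 0.499, 0.0682, 0.0774, 0 and 0.180 in basal replicates 1 to 5. The basal values rest on 8, 1, 1, 0 and 3 counts, against 729 to 2026 counts in luminal libraries. The groups were far apart, and basal cells were close to the limit of detection: the count of 0 in basal replicate 4 allows up to 0.188 CPM. The fitted log2 fold change was 9.02 (SE 0.47, edgeR, Benjamini-Hochberg adjusted p = 1.08e-09). The ratio of pooled CPM, from 7458 against 13 counts, was 546 with a 95% interval of 319 to 1026 that covers counting error only. Basal replicate 1 held 8 of the 13 basal counts, and without it the log2 fold change was 9.97 (adjusted p = 3.45e-09) and the pooled ratio 1122 (95% interval 480 to 3455).

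Ehf (Entrez 13661, chr2:103263431-103303275, - strand), another ESE factor, is the neighbour of Elf5. The genes lie 108.822 kb apart with 0 protein-coding genes between them. Ehf was at 384, 230, 209, 149 and 324 CPM in luminal replicates 1 to 5 and at 1.75, 0.409, 1.39, 9.0 and 1.44 CPM in the basal replicates. All luminal libraries were above all basal ones, and basal replicate 4 stood apart from the other basal libraries with 144 counts against 6 to 28. The log2 fold change was 6.51 (SE 0.62, edgeR, Benjamini-Hochberg adjusted p = 5.1e-07), and 7.67 (adjusted p = 6.77e-09) without that library. Basal replicate 4 had no count of Elf5. It was the highest basal library for Krt19, a luminal keratin, at 157 CPM against 53.7 to 107 in the others, for Areg at 6.25 against 0.546 to 2.52, and for Prlr at 2.19 against 0.0624 to 1.08. These 3 were picked after their values were seen. Epcam at 419 CPM and Lypd3 at 37.8 CPM were also highest there, while other luminal markers went the other way: Krt18 and Cd14 were lowest in basal replicate 4, at 421 and 1.63 CPM, Krt8 was second lowest, and Foxa1 and Pgr were within the range of the others. Its summed CPM of the 6 luminal markers, 1980, was also within the range of the others. Its summed luminal progenitor markers, at 41.45 CPM against 28.72 to 37.22, were the highest of the basal libraries. Lypd3 alone supplied 37.8 CPM of that sum, and Kit and Aldh1a3 were within the range of the others. Its summed hormone-sensing markers were also the highest, at 36.76 CPM against 18.65 to 34.97. There Areg and Prlr were highest, but Esr1, Foxa1 and Pgr were not. Both sums thus rest on genes already named here and add no separate marker. The part of luminal cells in the Ehf value of this library was not tested.

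Elf3 (Entrez 13710, chr1:135253574-135258472, - strand), the third ESE factor, differed from its relatives in that basal cells also held it. Luminal CPM was 356, 428, 351, 449 and 313, and basal CPM 60.0, 31.8, 45.0, 56.3 and 39.3. The lowest luminal library, at 313 CPM, was far above the highest basal one, at 60.0 CPM. The log2 fold change was 3.03 (SE 0.19, edgeR, Benjamini-Hochberg adjusted p = 8.8e-09). Within a library, the log2 ratio of Ehf to Elf3 counts was -0.62 ± 0.71 (SD, n = 5) in luminal and -4.72 ± 1.29 in basal cells, and the ranges did not overlap. An antisense gene, Gm26642, shares 162 exon bases with Elf3, and the library kit does not mark strand.

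Spdef (Entrez 30051, chr17:27714446-27731003, - strand), a factor known from goblet and other secretory cells, was less abundant. Its CPM was 28.7, 18.3, 21.0, 15.0 and 14.9 in luminal and 0.437, 1.16, 0.851, 0.375 and 0.420 in basal replicates 1 to 5. Every luminal library was above every basal one, and the basal values rest on 6 to 17 counts. The log2 fold change was 4.92 (SE 0.34, edgeR, Benjamini-Hochberg adjusted p = 1.95e-08).

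Etv6 and Elf1 were present at high levels in both layers, with smaller differences than Elf5, Ehf, Elf3 and Spdef. Etv6 (Entrez 14011, chr6:134035700-134270158, + strand) was at 240, 122, 157, 170 and 228 CPM in luminal and 110, 93.6, 100, 80.4 and 119 CPM in basal libraries. The groups came close without overlapping. The antisense gene Gm17089 shares 135 exon bases with Etv6. The log2 fold change was 0.87 (SE 0.19, edgeR, Benjamini-Hochberg adjusted p = 9.59e-04).

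Elf1 (Entrez 13709, chr14:79481174-79582491, + strand), a widely expressed factor, was at 178, 256, 214, 233 and 224 CPM in luminal and 189, 167, 156, 131 and 188 CPM in basal libraries. Luminal replicate 1 lay among the basal values, so the groups overlapped. Its log2 fold change was 0.42 (SE 0.14, edgeR, Benjamini-Hochberg adjusted p = 0.0211). This was the least secure call among the members: the adjusted p was 0.0524 without luminal replicate 2, 0.0545 without basal replicate 3 and 0.0554 without basal replicate 4. Elf1 shares 327 exon bases with the opposite-strand gene Wbp4.

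Etv5 (Entrez 104156, chr16:22381313-22439570, - strand) was the member with the largest excess in basal cells. Luminal CPM was 8.32, 6.32, 8.96, 3.36 and 4.25, and basal CPM 46.8, 22.5, 34.7, 25.0 and 56.3. All basal libraries were above all luminal ones. The log2 fold change was -2.56 (SE 0.32, edgeR, Benjamini-Hochberg adjusted p = 6.5e-06). Its close relative Etv4 (Entrez 18612, chr11:101769747-101785310, - strand) was at 19.4, 23.3, 32.3, 20.8 and 15.5 CPM in luminal and 23.0, 28.9, 26.6, 19.4 and 38.4 CPM in basal libraries. Here the groups overlapped, with luminal replicate 5 below all basal libraries and basal replicate 5 above all luminal ones, and the log2 fold change of -0.29 (SE 0.22) did not pass the test (edgeR, Benjamini-Hochberg adjusted p = 0.257). The log2 ratio of Etv5 to Etv4 counts within a library was -1.88 ± 0.50 (SD, n = 5) in luminal and 0.39 ± 0.50 in basal cells, with no overlap of the ranges.

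Ets2 (Entrez 23872, chr16:95702407-95721049, + strand) was abundant in both layers and higher in basal cells. Its CPM was 373, 387, 291, 419 and 398 in luminal and 671, 481, 489, 526 and 555 in basal libraries. The groups did not overlap, and the log2 fold change was -0.54 (SE 0.15, edgeR, Benjamini-Hochberg adjusted p = 0.00596). Ets1 (Entrez 23871, chr9:32636241-32757820, + strand) was at 74.6, 52.4, 70.8, 62.1 and 79.5 CPM in luminal and 72.5, 87.2, 71.5, 78.7 and 89.6 CPM in basal libraries. These groups overlapped, and the log2 fold change of -0.24 (SE 0.14) did not pass the test (edgeR, Benjamini-Hochberg adjusted p = 0.154). The log2 ratio of Ets2 to Ets1 counts was 2.46 ± 0.35 (SD, n = 5) in luminal and 2.76 ± 0.28 in basal libraries, with overlapping ranges.

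The 16 other ETS family genes of the mouse gave a different picture. Of the 11 that passed the filter, 0 were called higher in luminal cells, 9 were higher in basal cells, and Etv1 and Elk3 did not pass, with log2 fold changes of 0.34 and -0.34. Over all genes tested, 33.6% were called in the luminal and 31.2% in the basal direction. The luminal count was also 0 at an unadjusted p under 0.05 in edgeR, with DESeq2 and with limma voom, but it was 1, for Spi1, without the filter and in 9 of the 10 fits that left out a library. Their median was -0.83. Of these 11 genes, 6 had groups that did not overlap, a share near the 50.1% of all genes tested. The largest difference was that of Fli1, a factor known from endothelial and blood cells, with 0, 0, 2, 1 and 2 counts in luminal and 47, 43, 53, 38 and 41 counts in basal libraries. The pooled CPM ratio was 46.6 (95% interval 19.7 to 145, counting error only), and the fitted log2 fold change -5.38 (SE 0.61, edgeR, Benjamini-Hochberg adjusted p = 2.98e-06). The endothelial marker Cdh5 moved with it, with 0.217 ± 0.167 CPM in luminal against 4.58 ± 1.48 CPM in basal libraries (SD, n = 5). Pecam1 and Tek did not pass the test, with log2 fold changes of -0.47 and 0.65, and Emcn, Kdr and Tie1 were too low to be tested. The mean CPM of these untested markers was higher in basal libraries. Emcn was at 0.159 in luminal against 0.470 in basal, Kdr at 0.0228 against 0.384 and Tie1 at 0.0496 against 0.776 CPM. The study's sorting protocol also stained the lineage antigens CD31, CD45 and TER-119, which mark endothelial, white and red blood cells. The part of endothelial cells in the Fli1 value was not tested.

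Elf4, of the same subgroup as Elf1, had 4.95 ± 1.88 CPM in luminal against 30.5 ± 1.91 CPM in basal libraries (SD, n = 5), a log2 fold change of -2.61 (SE 0.24, edgeR, Benjamini-Hochberg adjusted p = 3.08e-07). Elf2, the remaining gene of that subgroup, changed by -0.47 (adjusted p = 0.00504). The Elf2 call was lost with library totals only (-0.28, edgeR, Benjamini-Hochberg adjusted p = 0.0797) and when tested against a 2-fold change. The repressors Erf and Etv3 changed by -1.14 and -0.83, and the SRF partners Elk4 and Elk1 by -1.17 and -0.51. The Elk1 call, with an adjusted p of 0.0428, was lost in 12 of 19 alternative settings. Gabpa, which drives genes of mitochondria and ribosomes, changed by -0.59 (adjusted p = 0.00257). Elf2, Elk4 and Gabpa share 371, 188 and 182 exon bases with other genes, so part of their counts is uncertain. Spib, known from B cells and dendritic cells, changed by -3.68 (SE 0.87, adjusted p = 0.002). Its CPM was 6.17, 3.68, 6.11, 0.188 and 3.54 in basal replicates 1 to 5, so that replicate 4 was among the luminal values of 0 to 0.613. The B cell marker Cd79a was at 0 in every luminal library and had 0, 3, 0, 2 and 0 counts in basal replicates 1 to 5, with 2 in the library where Spib was lowest, whereas Cd68 and Csf1r, markers of myeloid cells, were higher in basal cells (log2 fold changes of -1.84 and -0.67) and Cd52 was higher in luminal cells (2.03). Ptprc had at most 6 counts in a library. The part of leukocytes in the Spib and Fli1 values was not tested. Spi1, a myeloid factor, fell under the filter with 9 to 26 counts in luminal and 0 to 8 in basal libraries; without the filter its log2 fold change was 2.25 (SE 0.77, edgeR, Benjamini-Hochberg adjusted p = 0.0227). Erg had at most 19 counts in a library, Fev at most 9 and Spic at most 2, and Etv2 was at 0 in all 10.

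**Figure D2:**
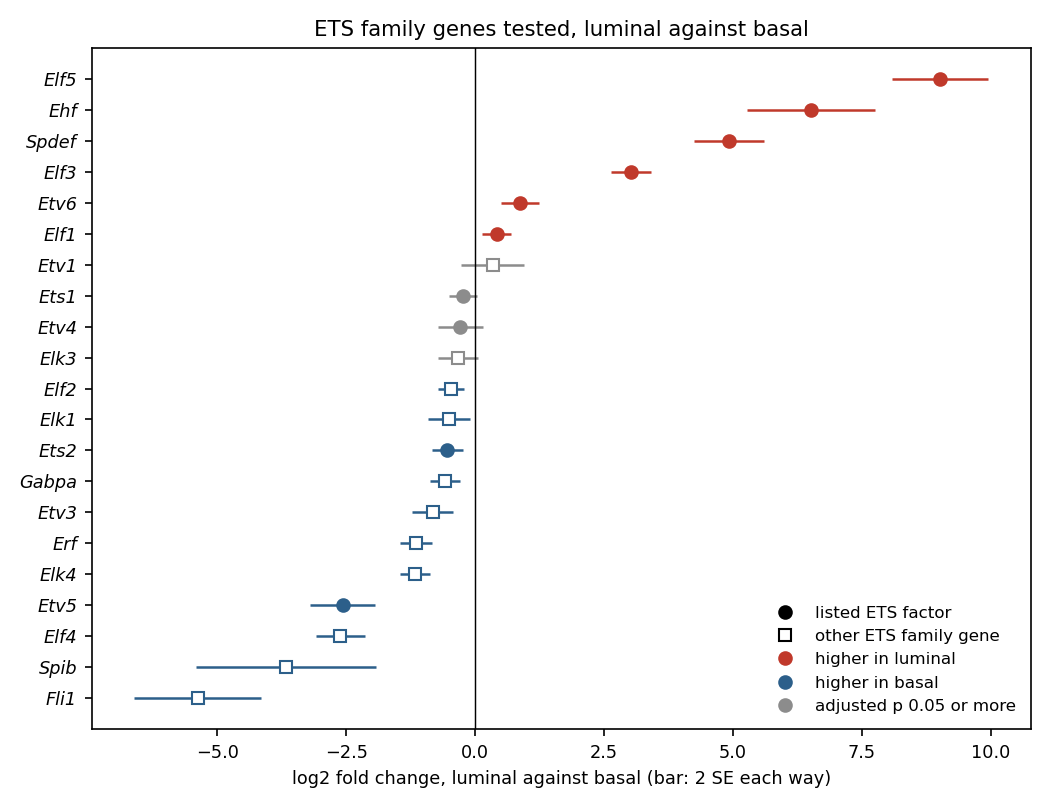
Log2 fold change of luminal against basal for the 21 ETS family genes tested, with bars of 2 SE each way; circles are the listed factors, open squares the other family genes, and grey marks genes that did not pass the test. All genes called higher in luminal cells are listed factors, from Elf1 at 0.42 to Elf5 at 9.02, and Fli1 at -5.38 is the lowest.

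To compare genes with one another, counts were set per kilobase of annotated exon (RPKM on the TMM-scaled total). Elf3 had the highest level of the members in luminal cells, at 181 ± 27.2 RPKM (SD, n = 5). It was followed by Ets2 at 96.0 ± 12.6, Ehf at 56.2 ± 20.4, Elf1 at 51.1 ± 6.59, Elf5 at 34.6 ± 11.9 and Etv6 at 32.1 ± 8.68 RPKM. Ets1 at 13.4 ± 2.11, Spdef at 10.2 ± 2.96, Etv4 at 9.27 ± 2.63 and Etv5 at 1.55 ± 0.607 RPKM closed the luminal order. The ranges separated Elf3 from Ets2, Etv6 from Ets1 and Etv4 from Etv5, and the ranges of all other neighbours overlapped. Within libraries, Ets2 was nevertheless above Ehf in 5 of 5, whereas Ehf was above Elf1 in 2 of 5. In basal cells Ets2 had the highest level, at 140 ± 19.8 RPKM, followed by Elf1 at 38.3 ± 5.57, Elf3 at 22.2 ± 5.59, Etv6 at 17.6 ± 2.63 and Ets1 at 15.7 ± 1.63. Etv4 at 11.4 ± 3.01 and Etv5 at 9.20 ± 3.58 RPKM came next, and Ehf at 0.607 ± 0.760, Spdef at 0.337 ± 0.179 and Elf5 at 0.0619 ± 0.0742 RPKM were last. Basal ranges separated Ets2 from Elf1, Elf1 from Elf3, Etv5 from Ehf and Spdef from Elf5, and Ets1 was above Etv4 in 5 of 5 libraries although their ranges overlapped. The order of Ehf and Spdef rests on basal replicate 4: without it Ehf was at 0.271 ± 0.126 RPKM (SD, n = 4), below Spdef at 0.373 ± 0.185. Without basal replicate 1, Elf5 was at 0.0306 ± 0.0279 RPKM. With the longest transcript as length, 0 of the 10 members changed rank in either cell type.

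Over all 26 ETS genes, the summed level was 564 ± 32.4 RPKM (SD, n = 5) in luminal and 408 ± 46.9 RPKM in basal cells. The 10 listed factors made up 86.1% ± 1.85 of it in luminal and 62.6% ± 1.73 in basal cells. The ESE subgroup took 48.2% ± 1.74 in luminal libraries, with a range of 45.9% to 50.1%, against 5.64% ± 1.54 in basal libraries. Ets1 and Ets2 together took 19.4% ± 1.84 in luminal and 38.2% ± 1.99 in basal cells. The repressors Erf and Etv3, which are not among the listed factors, took 6.23% ± 1.07 and 18.2% ± 1.05, and the 3 SRF partners Elk1, Elk3 and Elk4 took 3.97% ± 0.619 and 10.7% ± 1.24. These shares were not tested, and the share of one gene falls by construction where another rises.

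**Figure D3:**
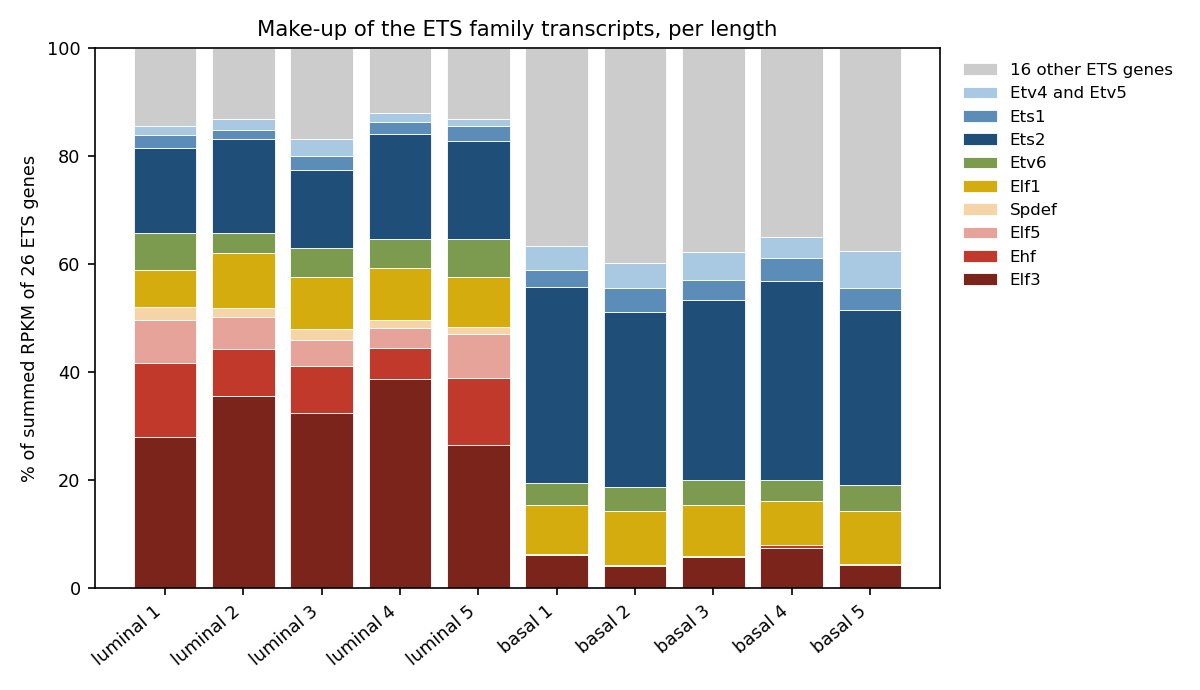
Share of each ETS factor in the summed RPKM of all 26 ETS genes, in percent, for each library; grey is the 16 genes outside the list. The red bands of Elf3, Ehf and Elf5 fill 45.9% to 50.1% of each luminal bar, and Ets2 is the widest coloured band of every basal bar.

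Within the luminal group the 3 ESE factors did not vary in the same way, although their summed share was steady. Elf3 took 28.0%, 35.6%, 32.3%, 38.6% and 26.5% of the family total in luminal replicates 1 to 5, and Ehf took 13.7%, 8.69%, 8.75%, 5.81% and 12.4%. Elf5 took 7.85%, 5.86%, 4.84%, 3.77% and 8.08%. Replicates 1 and 5 had the highest shares of both Ehf and Elf5 and the lowest of Elf3, which is partly fixed by the common total. In CPM, Ehf and Elf5 were also highest in replicates 1 and 5, but Elf3 was lowest in replicates 5 and 3. This order was not particular to Ehf and Elf5. Etv6 was highest in replicates 1 and 5 too, at 240 and 228 CPM against 122 to 170. So was Ets1, at 74.6 and 79.5 CPM against 52.4 to 70.8, whereas Elf1, Spdef, Ets2, Etv4 and Etv5 had another order. The summed CPM of the luminal progenitor markers Kit, Cd14, Aldh1a3 and Lypd3 was 2829 and 1923 in replicates 1 and 5 and 825 to 881 in the other luminal libraries. Cd14 supplied most of it, with 2061 and 1184 CPM against 461 to 488; Kit and Aldh1a3 were also highest in those libraries, but Lypd3 was higher in replicate 2, at 61.2 CPM, than in replicate 1, at 58.1 CPM. The summed hormone-sensing markers were 2277 and 2524 CPM in those libraries and 1530 to 1931 in the others, a difference that Pgr and Prlr carried: Pgr was at 611 and 426 CPM against 86.0 to 253, whereas Esr1 and Foxa1 were highest in replicate 3, Areg in replicate 2, and Prlr was higher in replicate 4 than in replicate 1. How much of the variation of Ehf and Elf5 went with the make-up of the sorted cells was not tested.

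In the basal group, Etv5 was highest in replicates 5 and 1, at 56.3 and 46.8 CPM against 22.5 to 34.7. The ERK phosphatase gene Dusp6 was at 525 and 492 CPM in replicates 1 and 5 and at 213 to 275 in the other basal libraries, and Spry2, an inhibitor of receptor tyrosine kinase signalling, at 282 and 213 against 121 to 134. Of the 10 ERK feedback genes listed, 7 had replicates 1 and 5 as their highest basal libraries and 3 did not: Il17rd was lowest in replicate 1, at 5.11 against 10.9 to 11.5 CPM, Spred2 was highest in replicate 3, at 127 CPM, and Spred3 in replicate 2, at 15.6 CPM. Etv4 was highest in replicate 5 but not in replicate 1. Replicates 1 and 5 were also the highest basal libraries for the members Elf1, Ets2 and Etv6, and for Elf5 on 8 and 3 counts. Elf3, Ehf, Spdef and Ets1 had another order. Erf, Elk4 and Cbfb, which are not ERK feedback genes, also had replicates 1 and 5 highest. The share of all genes with this order was not counted, so nothing is read from the 7 of 10. These genes were set side by side after their values were seen, and 5 libraries are too few for a correlation.

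**Figure D4:**
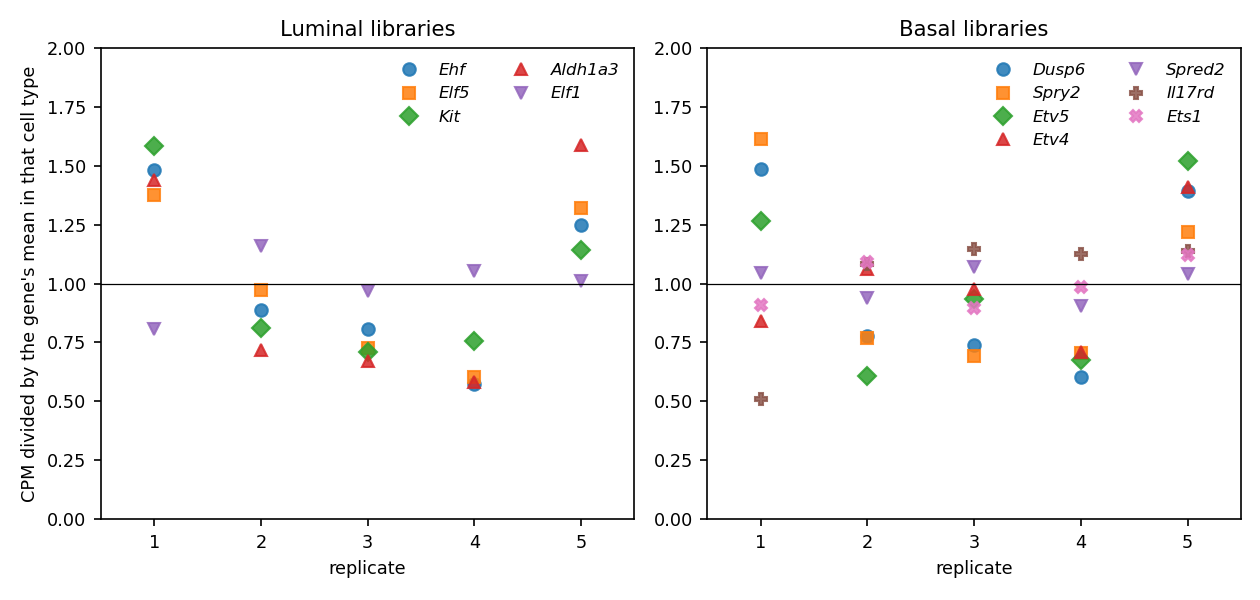
CPM of selected genes in each library divided by the gene's mean in that cell type, luminal libraries on the left and basal libraries on the right; the line marks the mean. Ehf, Elf5, Kit and Aldh1a3 lie above their mean in luminal replicates 1 and 5 and below it in the others, while Elf1 does not. Dusp6, Spry2 and Etv5 lie above theirs in basal replicates 1 and 5, whereas Il17rd is lowest in replicate 1 and Spred2 stays near its mean. Other members shared this: Etv6 was above its mean only in replicates 1 and 5 in both cell types, and Ets2 in basal cells.

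Feedback inhibitors of ERK signalling, known as genes that ERK-responsive ETS factors switch on, were compared between the cell types. Of 10 genes tested, 5 were higher in basal cells, 0 in luminal cells, and 5 did not pass (Dusp4, Dusp5, Spry4, Spred3 and Il17rd), with a median log2 fold change of -0.57. No further gene was higher in luminal cells at an unadjusted p under 0.05 in edgeR, with DESeq2 or with limma voom. Of all genes tested, 31.2% were called higher in basal cells and 33.6% in luminal cells. Dusp6 averaged 82.2 ± 24.4 CPM in luminal against 353 ± 144 CPM in basal cells (SD, n = 5), a log2 fold change of -2.10 (SE 0.28, edgeR, Benjamini-Hochberg adjusted p = 1.44e-05). Spry2 changed by -1.94 (SE 0.23, adjusted p = 4.07e-06) and Spred2, a membrane inhibitor of Raf activation, by -1.66 (SE 0.13, adjusted p = 6.33e-08). Dusp4, at 234 ± 72.1 CPM in luminal and 166 ± 69.8 CPM in basal cells, was called higher in luminal cells only when basal replicate 1 was left out (adjusted p = 0.00706) or under upper-quartile factors or library totals.

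Among 12 genes whose products bind, modify, degrade or repress ETS factors, 0 were higher in luminal cells, 4 were higher in basal cells and 8 did not pass, with a median of -0.35. The basal share is near the 31.2% of all genes tested that were called in that direction. In the luminal direction 33.6% of all genes tested were called. With edgeR at an unadjusted p under 0.05, the luminal count was also 0, as it was with DESeq2 and limma voom, and the basal count was 7. The count of luminal calls rose to 1 with upper-quartile factors and to 2 with library totals only. Atxn1, a partner of the Etv4 and Etv5 repressor Cic, averaged 40.4 ± 10.2 CPM in luminal against 202 ± 29.8 CPM in basal cells (SD, n = 5), a log2 fold change of -2.33 (SE 0.18, edgeR, Benjamini-Hochberg adjusted p = 5.5e-08). Cic itself changed by -0.77 (adjusted p = 9.01e-04). Runx1, which binds DNA next to Ets1, changed by -1.37 (adjusted p = 1.01e-04) and its partner Cbfb by -0.74 (adjusted p = 8.18e-04).

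Of 12 genes linked to Elf5 in the gland (the prolactin pathway, milk proteins and luminal progenitor genes), 8 were tested, and these were higher in luminal cells, with a median log2 fold change of 8.25, where 33.6% of all genes tested were called in that direction. Nothing is read from this count, since Kit, Cd14, Aldh1a3 and Prlr also serve as luminal markers and genes near 0 in basal cells passed the filter only through luminal libraries. Prlr, the prolactin receptor gene, averaged 1190 ± 277 CPM in luminal against 0.993 ± 0.782 CPM in basal cells (SD, n = 5), a log2 fold change of 10.21 (SE 0.51, edgeR, Benjamini-Hochberg adjusted p = 8.45e-10). Ltf, the milk iron-binding protein lactoferrin, changed by 9.77 and the progenitor marker Cd14 by 8.51. Stat5a and Stat5b, the factors that carry the prolactin signal, changed by 1.95 (adjusted p = 5.23e-05) and 1.02 (adjusted p = 4.65e-04). Csn3, the kappa-casein gene, averaged 692 ± 341 CPM in luminal and 2.60 ± 1.11 CPM in basal libraries (SD, n = 5), with a log2 fold change of 8.05. The 4 other milk genes of the list were near 0 and were not tested: Csn2 had at most 6 counts in a library, Csn1s1 at most 13 and Lalba at most 33, and Wap was at 0 in all 10.

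The tested genes whose pattern was most like that of Elf5 were found by the root mean square difference of gene-centred log2 CPM (prior count 2) over the 10 libraries. They were Adra1a, an adrenergic receptor gene, at 0.33, Cytip at 0.54, Btn1a1, which encodes a protein of the milk fat globule membrane, at 0.56, Cdo1, a cysteine-degrading enzyme gene, at 0.56, and 1700066N21Rik at 0.59. Adra1a averaged 74.1 ± 25.3 CPM in luminal against 0.136 ± 0.184 CPM in basal cells (SD, n = 5). Its log2 fold change was 8.94, and 9.95 without basal replicate 1, so the basal level rests largely on that library. The span of 1700066N21Rik contains all 6972 bases of Csn3, and the counts of the 2 genes differed by at most 15 in any library, so it cannot be told apart from this casein gene. Among the listed factors Ehf was the most like Elf5, at rank 96 with a difference of 1.40, ahead of Spdef at rank 255 and Elf3 at rank 627. This order is also that of their log2 fold changes, 6.51, 4.92 and 3.03. Over luminal and basal libraries together, the measure mostly reflects the size of the gap between the cell types. Elf5, Adra1a, Cytip and Btn1a1 were near 0 in basal cells and passed the filter only through luminal libraries, so no shared regulation is read from the likeness.

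Ehf and Elf5 are 1 of 3 close pairs in the family. Fli1 and Ets1 lie 92.808 kb apart on chromosome 9, and Erg and Ets2 115.806 kb apart on chromosome 16, in both cases with 0 protein-coding genes between them. In both of these pairs 1 gene was abundant in both layers and the other scarce: Ets1 averaged 67.9 ± 10.7 CPM in luminal against 79.9 ± 8.29 CPM in basal libraries (SD, n = 5), where Fli1 was at 0.0652 ± 0.0627 and 2.96 ± 0.689, and Ets2 was at 374 ± 49.1 and 544 ± 77.0 CPM, where Erg had at most 19 counts. In the Ehf and Elf5 pair both genes were high in luminal libraries, and both had log2 fold changes above 6.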

How the data were processed

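RNA-seq libraries were made with a kit that does not mark strand. The deposited values are the authors' whole-number read counts for each gene, not normalized. The submitters' processing notes list cutadapt 4.2 and Bowtie2 2.3.5.1, and the study describes alignment to mm10; the counting tool is not given in the sources used here. The study's methods state fewer replicates than the 5 libraries here, so these steps were assumed to hold. Entrez identifiers were matched to RefSeq symbols (GRCm38.p6) for 24570 of 24594 genes. Groups follow the cell type label, which the source name and the letter of the library description follow. The study calls its RNA-seq replicates biological, but the labels do not say which animal each of these libraries came from. Part of the spread behind the p-values may therefore be technical. In the library descriptions, the luminal and the basal library of each replicate share a leading number, which differs between replicates. The labels do not say what this number stands for, and the main test did not pair libraries by it.

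Genes were filtered with filterByExpr (minimum count 10, minimum total 15), scaled by TMM and compared with edgeR 4.0.16 (R 4.3.3; limma 3.58.1) as a 2-sided quasi-likelihood test, adjusted by the Benjamini-Hochberg method over 14609 genes. The SE was taken as the absolute log2 fold change over the root of the F statistic. RPKM used exon lengths from GENCODE M21 (GRCm38), known for 21358 genes. Scripts were tested on simulated counts. The named genes were the 26 ETS family genes, up to 3 called genes per direction from each other list and the 5 genes most like Elf5; any other gene was chosen after its values were seen. Members and lists were chosen with earlier results of these data known, and the within-library ratios after the values were seen. Of the genes that bind, modify or repress ETS factors, 2 planned for the list are not reported here and were left out of its counts. Alternatives were other scaling factors, filters, DESeq2 1.42.0, limma voom, a replicate block, glmTreat against a 2-fold change, leaving out each library and, added after seeing the data, the longest transcript as length.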

Additional observations from a re-analysis of the deposited data

Results flagged for a closer look

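In 78 groups of 5 libraries, 6 had a lowest or highest library that stood apart by Dixon's ratio, and chance gives about 3.9. Ehf was at 9.0 CPM in basal replicate 4, against 0.409 to 1.75 in the other basal libraries. In luminal replicate 4, Erg was at 0.687 CPM against 0 to 0.188, and Fev at 0.687 CPM against 0 in the other luminal libraries, 9 counts each. Etv1 was at 7.67 CPM in basal replicate 5, against 3.75 to 4.06. Elf2 was at 68.1 CPM in luminal replicate 2, below the 76.0 to 78.7 of the others. Btn1a1, one of the genes most like Elf5, was at 0.686 CPM in basal replicate 1, against 0 to 0.120.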

How the results depend on the processing

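No value reversed its direction. Of 187 values of the 10 members under the alternatives, 180 kept their direction and their side of the threshold, as did 662 of 692 over 37 genes (the 21 ETS genes tested, 9 genes from the other lists, the 5 most like Elf5, Csn3 and 1 more partner gene). The 7 member calls lost were those of Elf1 without a filter (adjusted p = 0.0702), under glmTreat and without luminal replicate 2, basal replicate 3 or basal replicate 4, and those of Ets2 and Etv6 under glmTreat. Leaving out 1 library gave log2 fold changes of 8.68 to 9.97 for Elf5, 6.23 to 7.67 for Ehf, 2.91 to 3.13 for Elf3 and -2.75 to -2.36 for Etv5.

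Tested against a 2-fold change with glmTreat, 1913 of 14609 genes were higher in luminal cells and 1995 in the basal direction. In luminal cells 4 members (Elf5, Ehf, Spdef and Elf3) and 7 Elf5-linked genes were higher. In basal cells 1 member (Etv5) and 3 other ETS genes were higher, as were 1 partner gene and 3 ERK feedback genes. A minimum of 10 counts in every library left 3 members higher in luminal cells, because it removes Elf5, Ehf and Spdef for their low basal counts, and 5 Elf5-linked genes. Without a filter, 1 other ETS gene (Spi1, under the filter otherwise) was higher in luminal cells, as in 9 of the 10 fits that left out a library, which gave 0 to 1. Partner genes higher in luminal cells numbered 1 with upper-quartile factors and 2 with library totals only, and those higher in basal cells 7 with DESeq2 size factors and with DESeq2. ERK feedback genes higher in luminal cells numbered 1 with upper-quartile factors and with library totals only, and 0 to 1 leaving out a library. Upper-quartile factors moved the median of all genes by 0.12 and library totals by 0.19 on the log2 scale. With the longest transcript as length, the 10 members took 85.1% of the family total in luminal and 60.9% in basal cells, and the shares of the ESE subgroup and of Ets1 with Ets2 moved by less than 1 SD.

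Same-numbered libraries did not deviate together: the correlation of their deviations ranged from -0.11 to 0.17, and 2 of 5 luminal libraries correlated best with their own number. With the replicate number as a block, the call of Elk1 (adjusted p = 0.0848) was lost and no other named call changed. The number of genes higher in basal cells went from 9 to 8 for the other ETS genes, from 5 to 4 for ERK feedback genes and from 4 to 5 for partner genes. Counts of 0 to 8 limit the precision of basal Elf5.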
